A study of Mus musculus with 16 samples.

Results

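The transcripts described here encode 10 acute-phase proteins that adipocytes can make: the serum amyloid A proteins Saa1, Saa2 and Saa3, haptoglobin (Hp), lipocalin 2 (Lcn2), ceruloplasmin (Cp), the orosomucoids Orm1 and Orm2, secretory leukocyte peptidase inhibitor (Slpi) and chitinase-like 1 (Chil1). They were taken by gene symbol from a table of 54347 genes, and all 10 were found. The members were chosen by the sgRNA effect measured in these same libraries, so their differences between sgRNA and empty vector are given as a description with no test. Of the 10, 9 passed the filter on low counts together with 13150 genes in all, and Saa2 did not.

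The libraries were made from wt1-SAM cells, a single immortalised mouse brown preadipocyte line that stably carries SAM, a CRISPR activation system in which a guide RNA brings transcriptional activators to a promoter. The cells were differentiated, transfected with 250 ng of plasmid on day 4 and harvested on day 7. They received either the empty vector or plasmids labelled pSgRNA-MS2-2+7, which encode sgRNAs against the long noncoding RNA Gm15551, and were left unstimulated or stimulated for the last 24 h with isoproterenol (1 µM), which activates β-adrenergic receptors. The 4 groups (empty vector control, empty vector with isoproterenol, sgRNA control, sgRNA with isoproterenol) hold 4 polyA RNA libraries each, numbered replicates 3, 4, 5 and 6, and all 16 share the line, the activation system and a transfection. No source states that the replicates were separate cultures, so the p-values measure the spread between these libraries, which may be technical.

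Acute-phase proteins are secreted proteins whose levels in blood change during infection and injury. Their best known source is the liver, where interleukin 6 acting through STAT3 and interleukin 1 and tumour necrosis factor acting through NF-κB drive their genes together with C/EBP factors and glucocorticoids. Adipocytes make several of them too, and Saa3, Lcn2, Hp and Orm1 are known as inflammation-responsive products of fat cells. Isoproterenol raises cyclic AMP in brown adipocytes and mimics the sympathetic signal of cold.

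Total counts ran from 9053521 to 16546187 per library, and 1 ribosomal RNA gene, CT010467.1, took 11.7% to 51.8% of them. Within pairs that shared treatment and replicate number, its share was larger with the empty vector in 8 of 8, and within pairs that shared plasmid and number it was larger after stimulation in 6 of 8. Gm15551, the target of the guides, was at 0.952 ± 0.405 CPM (library-scaled count, SD, n = 4) in empty vector controls, 0.147 ± 0.199 in stimulated empty vector cells, 2.97 ± 1.08 in sgRNA controls and 1.56 ± 0.420 in stimulated sgRNA cells. Defining markers of fat cells were abundant in every group, the 8 adipocyte markers summing to between 12436 and 26930 CPM. The 10 brown adipocyte markers summed to between 221 and 612 CPM, most of it Elovl3. Ucp1, the uncoupling protein that defines brown fat, was low in controls, at 0.350 ± 0.302 CPM with the empty vector and 0.548 ± 0.316 with the sgRNAs, and stood at 6.42 ± 2.67 and 9.35 ± 4.25 after isoproterenol, and Dio2 had 1 count in all libraries.

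RefSeq promoter windows (250 bases before and 50 after the annotated start, build GRCm38.p6) were given for 8 of the 10 members, 2 of them for Cp. No window was given for Hp and Orm1. The 5 windows below are shown because their genes take the different courses described later. Between libraries sharing plasmid and number, Saa3 was lower with isoproterenol in 7 of 8 pairs, Cp lower and Slpi higher in 8 of 8. Lcn2 and Orm2 were each higher in 5 of 8. Cp was highest in another replicate number than Saa3 and Slpi. Of these genes Slpi alone passed the primary test described later. Each is written 5′ to 3′ on the gene's strand, with matches to the C/EBP motif TTGCNNAA on either strand in capitals.
Saa3, chr7:46715627-46715926, minus strand: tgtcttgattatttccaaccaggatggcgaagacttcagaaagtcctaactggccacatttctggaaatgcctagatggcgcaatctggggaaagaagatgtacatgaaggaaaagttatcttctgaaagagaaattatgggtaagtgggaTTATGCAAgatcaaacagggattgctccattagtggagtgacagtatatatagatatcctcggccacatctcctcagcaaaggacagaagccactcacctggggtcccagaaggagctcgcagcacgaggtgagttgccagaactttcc
Slpi, chr2:164356458-164356757, minus strand: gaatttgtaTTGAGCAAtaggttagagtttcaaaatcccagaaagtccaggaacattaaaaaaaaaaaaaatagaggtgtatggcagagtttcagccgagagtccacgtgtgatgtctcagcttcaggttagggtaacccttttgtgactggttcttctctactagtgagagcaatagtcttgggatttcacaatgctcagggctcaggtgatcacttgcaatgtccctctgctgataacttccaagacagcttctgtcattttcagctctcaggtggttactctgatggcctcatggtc
Lcn2, chr2:32387690-32387989, minus strand: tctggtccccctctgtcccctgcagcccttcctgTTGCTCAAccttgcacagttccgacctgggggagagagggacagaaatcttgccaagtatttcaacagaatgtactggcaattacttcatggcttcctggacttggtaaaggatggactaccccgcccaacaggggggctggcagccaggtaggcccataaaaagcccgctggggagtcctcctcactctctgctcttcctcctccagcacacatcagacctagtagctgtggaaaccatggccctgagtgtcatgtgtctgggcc
Cp, window 2, chr3:19956999-19957298, plus strand: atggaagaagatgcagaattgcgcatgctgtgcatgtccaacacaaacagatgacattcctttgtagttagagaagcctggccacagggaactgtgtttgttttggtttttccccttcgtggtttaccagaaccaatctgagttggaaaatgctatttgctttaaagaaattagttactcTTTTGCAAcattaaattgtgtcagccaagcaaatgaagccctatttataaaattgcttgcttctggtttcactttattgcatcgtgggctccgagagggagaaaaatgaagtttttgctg
Orm2, chr4:63362199-63362498, plus strand: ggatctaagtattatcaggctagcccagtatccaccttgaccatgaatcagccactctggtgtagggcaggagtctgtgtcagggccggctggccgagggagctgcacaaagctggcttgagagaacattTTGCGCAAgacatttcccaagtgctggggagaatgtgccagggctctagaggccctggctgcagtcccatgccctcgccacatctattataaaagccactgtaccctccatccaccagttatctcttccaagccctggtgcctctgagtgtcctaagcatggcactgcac

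C/EBP letters were found in 7 of the 9 member windows, those of Saa1, Saa2, Saa3, Lcn2, Slpi, Orm2 and Cp (window 2), and in 10.8% of all 32851 mouse windows of the same length. The windows of Saa1 and Saa2 were 95.3% identical and are not independent, whereas those of Saa3 and Saa1 were 50.9% identical. The NF-κB consensus was found in 1 of 9 windows, that of Chil1, against 8.46% of all windows. The glucocorticoid half-site AGAACA lay in 2 of 9, in Cp (window 1) and Orm2, against 19.0%. STAT letters TTCNNNGAA and the cyclic AMP half-site TGACG were in 0 of 9, against 8.30% and 20.8% of all windows, which says only that these letters are not in these windows. All motifs were read on both strands, a match is a description of the letters and not a site in use, and no match of one motif overlapped a match of another in these windows.

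**Figure D1:**
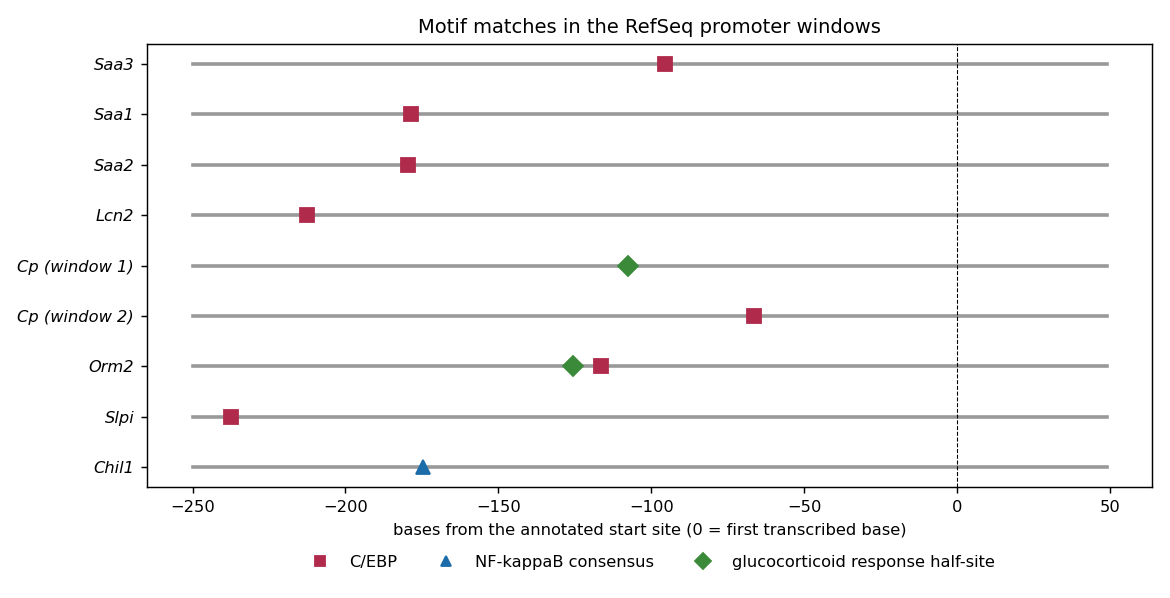
Motif matches in the 9 promoter windows; the horizontal axis gives bases from the annotated start and each symbol a match on either strand. C/EBP matches lie in 7 of 9 windows and NF-κB in 1.

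Per kilobase of exon, Orm1 and Lcn2 were the most abundant members in empty vector controls, at 154 ± 46.9 and 140 ± 40.1 CPM per kb (SD, n = 4). Hp followed with 49.2 ± 16, Saa3 with 40.8 ± 12 and Orm2 with 17.8 ± 6.94. Slpi at 2.33 ± 1.61, Cp at 1.10 ± 0.702, Chil1 at 0.849 ± 0.197, Saa1 at 0.420 ± 0.286 and Saa2 at 0.368 ± 0.125 CPM per kb were low. Neighbours in this order overlapped in their library values except Lcn2 and Hp, Orm2 and Slpi, and Chil1 and Saa1. In stimulated empty vector cells Lcn2 stood first and Orm1 second, with 163 ± 38.2 and 155 ± 37.3 CPM per kb.

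**Figure D2:**
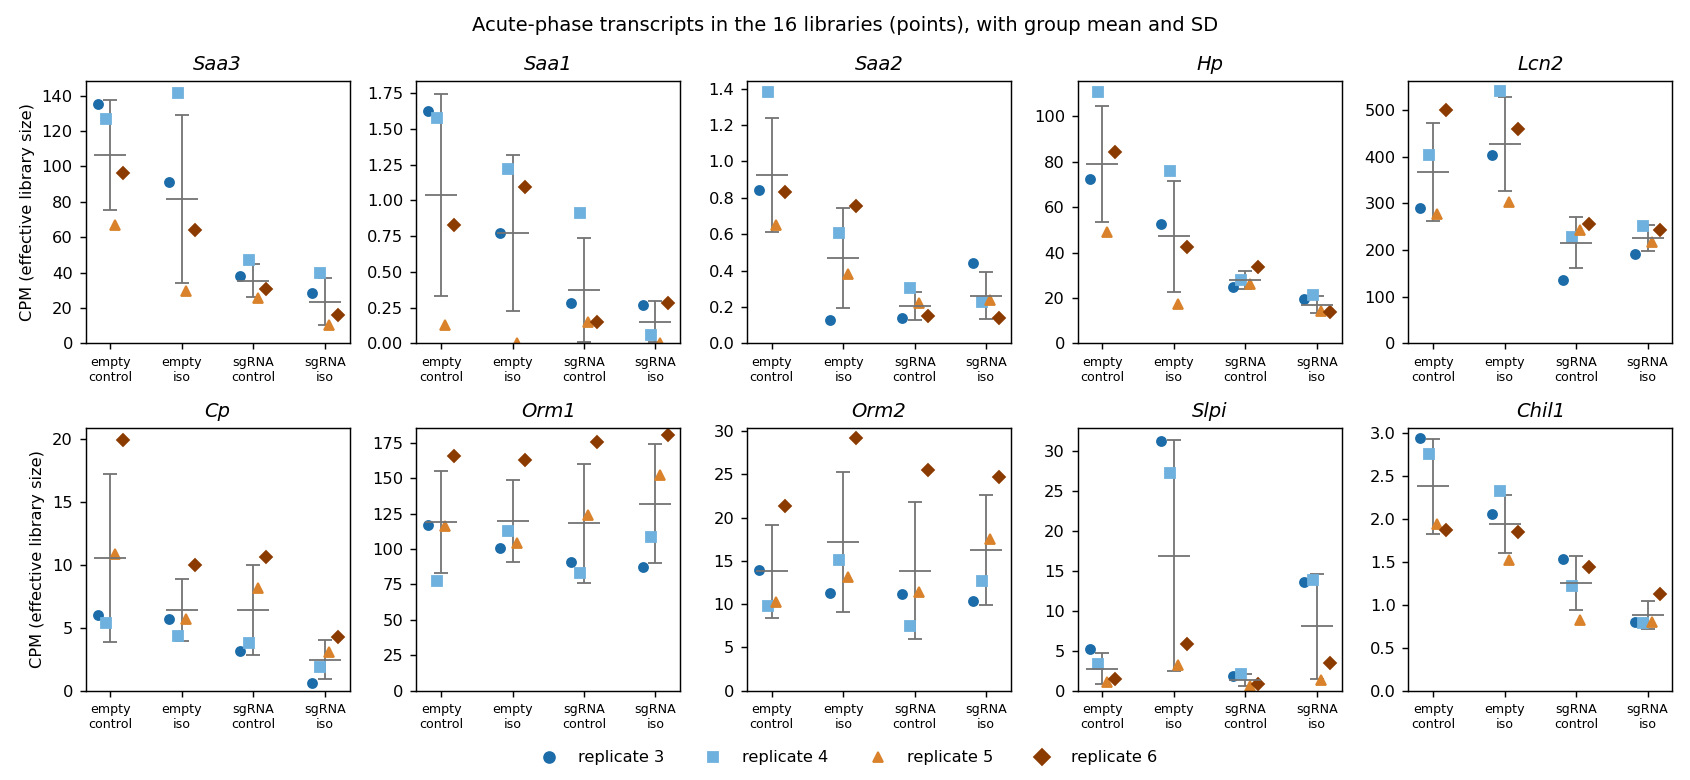
CPM of each member in the 16 libraries, with 1 symbol per replicate number, horizontal marks for group means and bars for the SD (bars reaching below 0 end at the axis). Slpi is higher in each stimulated library than in its unstimulated partner, and Orm1 and Orm2 reach their highest value in replicate 6 in each group.

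Isoproterenol changed 1 of the 9 tested members, Slpi, when the effect was averaged over both plasmids. In fits that did not model replicate number, this call was lost without replicate 3 and without replicate 4. It stood in 29 of 31 alternative fits. Cp, Hp and Saa3 joined Slpi, all lower, once the replicate number was included as a block, and Lcn2, Orm1, Orm2, Chil1 and Saa1 did not pass the test in either fit. A call needed an adjusted p under 0.05 in edgeR (quasi-likelihood F test, Benjamini-Hochberg over all genes), and a log2 fold change beyond 0.5 in size. By this rule 2.65% of all tested genes were called without the block and 5.70% with it, against 1 and 4 of the 9 members. The members' median log2 fold change was -0.40 without the block, and that of all tested genes 0.0047. The members were chosen by the sgRNA effect in these same libraries, not by this isoproterenol comparison, though with earlier results of these data known. Markers of fat cells moved with the same comparison: 4 of the 8 adipocyte markers fell without the block and 5 with it, with a median of -0.55 over the list. Those called without it were Cfd (adipsin) at -1.48 ± 0.29 (edgeR adjusted p = 0.00763), Adipoq (adiponectin) at -1.06 ± 0.18 (adjusted p = 0.00222), Lipe (hormone-sensitive lipase) at -0.69 ± 0.15 (adjusted p = 0.0139) and Cidec (a lipid droplet protein) at -0.54 ± 0.13 (adjusted p = 0.0299). The summed list ran from 16372 to 26930 CPM in empty vector controls, 12436 to 21949 after isoproterenol, 20038 to 25394 in sgRNA controls and 13377 to 23584 in stimulated sgRNA cells. Of the 10 brown adipocyte markers, 9 were tested, and 2 rose and 0 fell without the block, Ucp1 by 4.03 ± 0.37 (edgeR adjusted p = 7.36e-06) and Ppargc1a, a coactivator of mitochondrial genes, by 0.71 ± 0.15 (adjusted p = 0.0128). With the block 3 rose, and the list's median without it was 0.25. The part of either list in the members' differences was not tested.

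Saa3 (ENSMUSG00000040026, chr7:46711998-46715700 of GRCm38, minus strand) is the serum amyloid A of fat cells and macrophages and the only abundant member of its family in these cells. In replicates 3, 4, 5 and 6, in that order throughout, empty vector controls held 135, 127, 66.9 and 96.5 CPM and stimulated empty vector cells 91.5, 142, 29.5 and 64.1. In sgRNA controls it stood at 38.2, 47.1, 25.7 and 30.9, and in stimulated sgRNA cells at 28.4, 39.7, 10.2 and 16.1. Stimulated and control libraries overlapped with either plasmid, yet the stimulated one was lower in 7 of the 8 pairs sharing plasmid and number, the exception being replicate 4 of the empty vector. The averaged isoproterenol effect was -0.48 ± 0.30 on the log2 scale (SE; edgeR adjusted p = 0.448), and -0.60 ± 0.13 with the block (adjusted p = 0.00321). Described without a test, the sgRNA library was lower in 8 of 8 pairs, by 2.60 to 3.98 fold.

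Saa1 (ENSMUSG00000074115, chr7:46740497-46742980, minus strand) and Saa2 (ENSMUSG00000057465, chr7:46751790-46754313, plus strand) encode the circulating forms carried on high-density lipoprotein and secreted mainly by the liver. Of the stretches of 31 bases in their transcripts, 46.0% of those of Saa1 occur in Saa2 and 44.4% of those of Saa2 in Saa1, so the split of reads between the pair is uncertain. Saa1 was at 1.62, 1.58, 0.130 and 0.831 CPM in empty vector controls and 0.773, 1.22, 0 and 1.09 in stimulated empty vector cells. It was at 0.280, 0.912, 0.150 and 0.152 in sgRNA controls and 0.267, 0.0566, 0 and 0.282 in stimulated sgRNA cells. Over all 16 libraries Saa1 had 0 to 27 reads per library. A count of 0 allows up to 3 counts, which is 0.166 to 0.390 CPM depending on the library (counting error only); the highest empty vector values lie well above that limit and most sgRNA values near or under it. The isoproterenol effect on Saa1 was -0.85 ± 0.62 (edgeR adjusted p = 0.533; 0.176 with the block). Over 31 alternatives it ran from -1.46 to -0.29.

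Saa2 stood at 0.843, 1.38, 0.649 and 0.831 CPM in empty vector controls and at 0.129, 0.609, 0.382 and 0.757 after isoproterenol. In sgRNA controls it was at 0.140, 0.304, 0.225 and 0.152, and in stimulated sgRNA cells at 0.444, 0.226, 0.240 and 0.141. At 1 to 21 reads per library it was below the filter and was not tested. Its unstimulated sgRNA and empty vector libraries did not overlap, while the stimulated ones did.

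Hp (ENSMUSG00000031722, chr8:109575128-109579172, minus strand) encodes haptoglobin, which binds free haemoglobin. Its levels were 72.3, 111, 48.9 and 84.1 CPM in empty vector controls and 52.6, 76.1, 17.2 and 42.6 after isoproterenol. In sgRNA controls 24.9, 27.8, 26.0 and 33.7 were measured, and in stimulated sgRNA cells 19.4, 21.1, 14.1 and 13.7. Hp was lower in the stimulated library of 8 of 8 pairs, by 1.29 to 2.85 fold, and the sgRNA libraries separated fully by treatment whereas the empty vector ones overlapped. The averaged effect was -0.73 ± 0.23 (edgeR adjusted p = 0.0914), which became -0.77 ± 0.16 with the block (adjusted p = 0.00241). DESeq2 without the block called it as well (adjusted p = 0.0285). Between sgRNA and empty vector, as a description, it was lower in 8 of 8 pairs, by 1.22 to 3.98 fold.

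Cp (ENSMUSG00000003617, chr3:19957054-20009145, plus strand) encodes ceruloplasmin, a copper-carrying ferroxidase that oxidises iron for loading onto transferrin. It shares exonic bases with Hps3 on the opposite strand, and reads from that stretch cannot be told apart if strand was not used in counting. Cp was at 6.02, 5.39, 10.9 and 19.9 CPM in empty vector controls and 5.67, 4.32, 5.73 and 10.0 after isoproterenol. It was at 3.15, 3.80, 8.16 and 10.6 in sgRNA controls and 0.622, 1.87, 3.04 and 4.24 in stimulated sgRNA cells. The stimulated library was lower in 8 of 8 pairs, by 1.06 to 5.06 fold, although the groups overlapped. Across both plasmids the effect was -1.04 ± 0.37 (edgeR adjusted p = 0.136) and, with the block, -0.99 ± 0.16 (adjusted p = 0.000343). The library with 0.622 CPM rests on 7 reads. In the untested comparison the sgRNA library was lower in 8 of 8 pairs, by 1.34 to 9.12 fold.

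Lcn2 (ENSMUSG00000026822, chr2:32384633-32388252, minus strand) encodes a lipocalin that binds bacterial siderophores. Empty vector controls held 289, 403, 278 and 501 CPM and stimulated empty vector cells 404, 542, 303 and 459. In sgRNA controls Lcn2 was at 136, 228, 242 and 256, and after isoproterenol at 191, 252, 217 and 244. All 8 sgRNA libraries lay under the lowest empty vector library, 278 CPM, and the sgRNA member of a pair was lower by 1.15 to 2.15 fold, given without a test. Between stimulated and control libraries there was overlap with either plasmid, 5 of 8 pairs being higher with isoproterenol. The effect of 0.14 ± 0.16 did not pass the test (edgeR adjusted p = 0.717; 0.315 with the block).

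Orm1 (ENSMUSG00000039196, chr4:63344560-63348163, plus strand) and Orm2 (ENSMUSG00000061540, chr4:63362449-63365878, plus strand) encode α1-acid glycoproteins, plasma lipocalins that bind basic and neutral drugs. They share 27.5% of their stretches of 31 bases, and Orm2 shares 9.40% of its own with Orm3, so the split between them is uncertain. Orm1 was at 117, 77.4, 116 and 166 CPM in empty vector controls, 100.5, 113, 104 and 163 after isoproterenol, 90.7, 82.9, 124 and 175 in sgRNA controls and 87.5, 109, 152 and 180.4 in stimulated sgRNA cells. Orm2 was at 13.9, 9.72, 10.3 and 21.4, then 11.3, 15.1, 13.1 and 29.2, then 11.2, 7.45, 11.4 and 25.5, and finally 10.3, 12.7, 17.5 and 24.7 in the same groups. The 4 groups overlapped for both genes. Isoproterenol effects were 0.09 ± 0.20 for Orm1 and 0.28 ± 0.28 for Orm2 (edgeR adjusted p = 0.878 and 0.673; 0.463 and 0.0977 with the block). The sgRNA effects, untested, were 0.06 and -0.04, beside -0.85 or lower for each of the other 7 tested members.

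Slpi (ENSMUSG00000017002, chr2:164354070-164389095, minus strand) encodes an inhibitor of neutrophil elastase and related proteases, and it shares exonic bases with Mir7678. Controls with the empty vector held 5.18, 3.35, 1.04 and 1.45 CPM and stimulated cells 31.3, 27.2, 3.18 and 5.80. With the sgRNAs, Slpi was at 1.82, 2.05, 0.599 and 0.760 in controls and 13.6, 13.8, 1.28 and 3.46 after isoproterenol. Its control libraries held 8 to 86 reads with the empty vector and 8 to 27 with the sgRNAs. The stimulated library was higher in 8 of 8 pairs, by 2.14 to 8.13 fold with a median of 5.30 fold, while the groups overlapped and replicates 3 and 4 ran above 5 and 6. Slpi rose by 2.58 ± 0.57 on the log2 scale, or 5.96 fold (edgeR adjusted p = 0.0159), and by 2.53 ± 0.16 with the block (adjusted p = 3.22e-08). In fits without the block the call was lost when replicate 3 (edgeR adjusted p = 0.147) or replicate 4 (0.145) was left out. The effect stayed at 2.52 and 2.39. Slpi was called in 29 of the 31 alternatives, including every fit with the block. Comparing plasmids as a description, the sgRNA library was lower in 8 of 8 pairs, by 1.63 to 2.85 fold.

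Chil1 (ENSMUSG00000064246, chr1:134182176-134190181, plus strand) encodes a chitinase-like lectin that binds chitin and lacks chitinase activity. It was at 2.95, 2.76, 1.95 and 1.87 CPM in empty vector controls, 2.06, 2.32, 1.53 and 1.85 after isoproterenol, 1.54, 1.22, 0.823 and 1.44 in sgRNA controls and 0.800, 0.792, 0.801 and 1.13 in stimulated sgRNA cells. The stimulated library was lower in 8 of 8 pairs, by 1.01 to 1.92 fold. The effect, -0.40 ± 0.19, did not pass the test (edgeR adjusted p = 0.282; 0.125 with the block). The sgRNA libraries lay below the empty vector ones under either treatment, with no test.

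**Figure D3:**
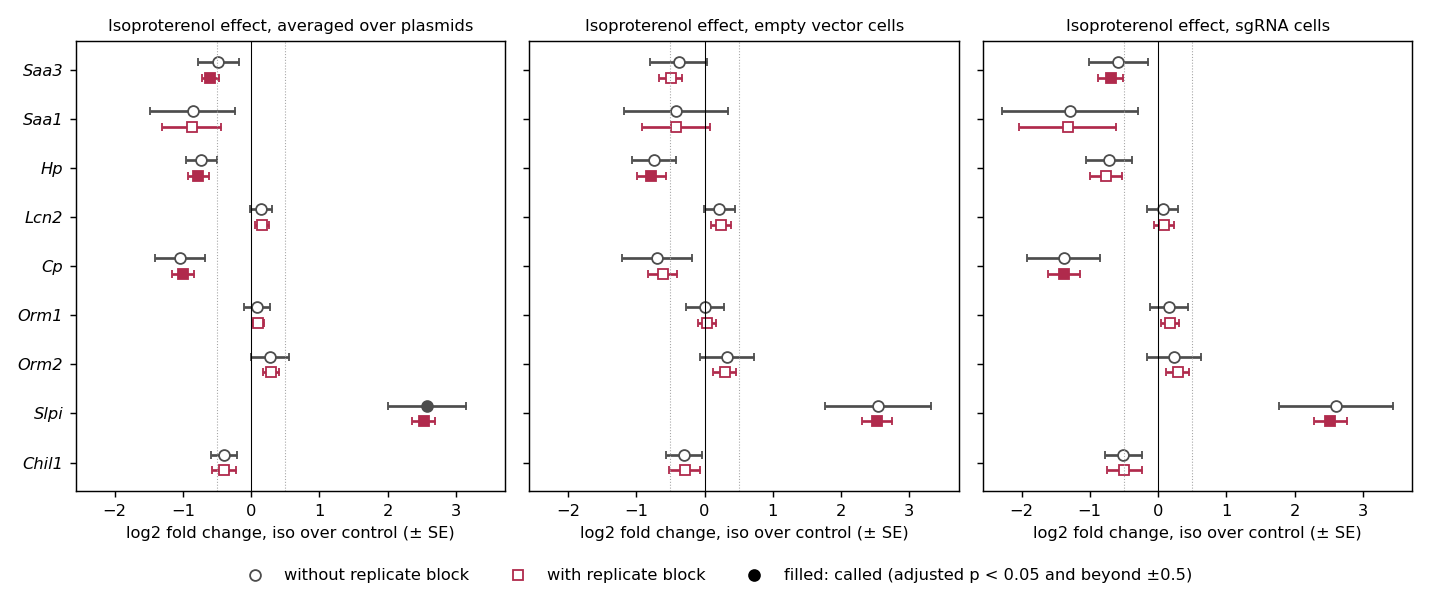
Log2 fold change of isoproterenol over control with its SE, for 9 members, averaged (left), in empty vector cells (middle) and in sgRNA cells (right); grey circles are without and red squares with the replicate block, and filled symbols are called. Slpi lies near 2.5 in each panel; Cp, Hp and Saa3 lie below 0.

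Within empty vector cells alone, 0 of 9 members were called without the block by edgeR (0.829% of all tested genes) or DESeq2 (221 of 13150 genes). At an unadjusted p under 0.05 there were 2 of 9 members in each tool, and 1332 of all 13150 genes in edgeR and 1390 in DESeq2. With the block 2 were called, Slpi at 2.53 ± 0.22 (edgeR adjusted p = 2.21e-06) and Hp at -0.78 ± 0.21 (adjusted p = 0.0286), where 4.47% of all genes were called. Hp was lost when the ribosomal RNA share joined the block (-0.59, edgeR adjusted p = 0.0931), and Orm2 was then called (0.53, adjusted p = 0.0224). In sgRNA cells likewise 0 of 9 were called without the block by edgeR (0.700% of all genes) or DESeq2 (177 of 13150 genes). At an unadjusted p under 0.05 there were 3 of 9 members in each tool, and 1112 of all genes in edgeR and 1209 in DESeq2. With it Slpi (2.52 ± 0.24, edgeR adjusted p = 7.09e-06), Cp (-1.37 ± 0.24, adjusted p = 0.00154) and Saa3 (-0.70 ± 0.18, adjusted p = 0.0287) were called, beside 3.90% of all genes.

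Whether isoproterenol acted differently with the 2 plasmids was tested as an interaction. None of the 9 members passed edgeR with or without the block (0 of 13150 genes in each, which is 0%). At an unadjusted p under 0.05 there were 0 members and 52 genes without the block, and 1 member, Cp, and 199 genes with it. DESeq2 called 0 members and 0 of 13150 genes, with 0 members and 46 genes at an unadjusted p under 0.05. The Cp interaction in the blocked edgeR fit was -0.76 ± 0.32 on the log2 scale (adjusted p = 1.00). A difference that passes in one plasmid and not in the other, as for Hp and Saa3, is therefore not shown to differ between them.

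**Figure D4:**
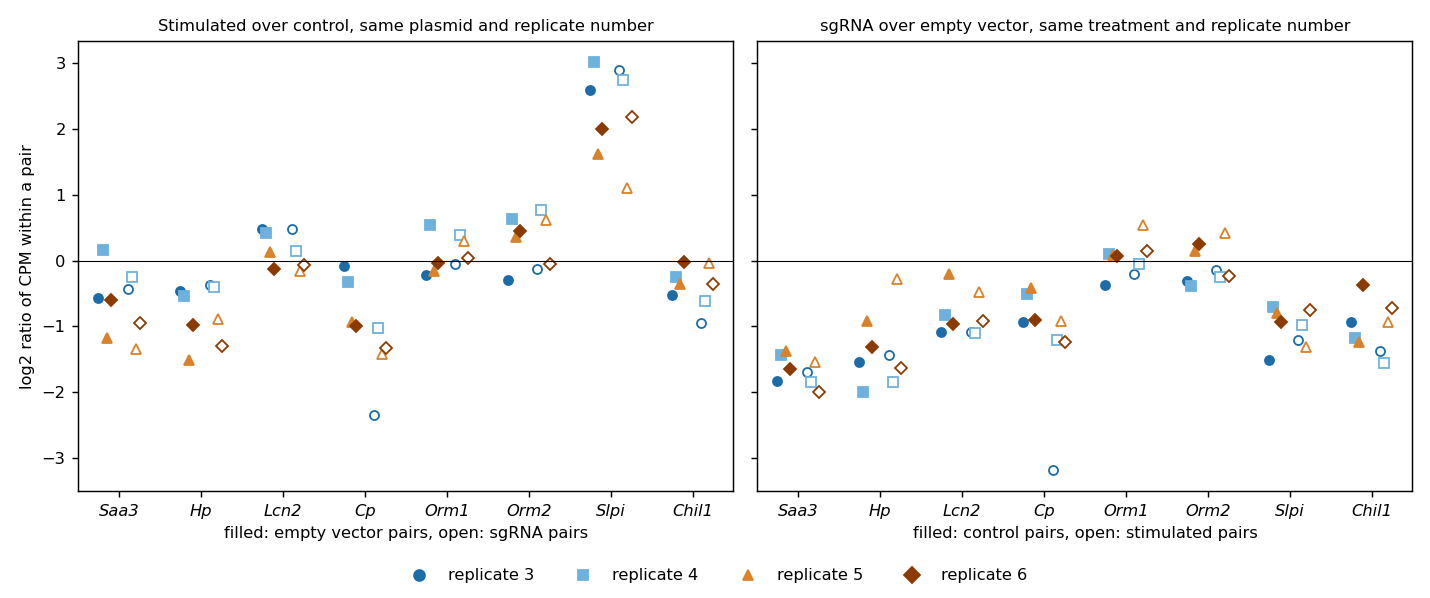
Log2 ratio of CPM between paired libraries for 8 members (Saa1 and Saa2 are left out for low counts). Left, isoproterenol over control; right, sgRNA over empty vector, where 6 of the 8 lie below 0 in each of their 8 pairs, a description of the comparison by which they were chosen.

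The sgRNA effect averaged over treatments was -1.96 for Saa1, -1.69 for Saa3, -1.48 for Hp, -1.10 for Slpi, -1.04 for Cp, -1.04 for Chil1 and -0.85 for Lcn2 on the log2 scale. In edgeR, 0 of 9 members and 0% of genes were called without the block (437 genes at an unadjusted p under 0.05), and 6 members and 0.266% of genes with it. DESeq2 without the block called 4 members and 10 genes. Since the members were chosen on this comparison, the counts are no test of them and nothing is read from them. The ribosomal RNA share, which was higher with the empty vector in 8 of 8 pairs, moved with this comparison. With that share as covariate the effect was -2.68 for Saa1 and -1.81 for Slpi, and with block and share -1.99 and -0.98. It lay below 0 for these 7 members in both fits, for Cp at -0.77 and -1.17. The part of that share in the differences was not tested.

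The members also differed by replicate number. Unlike the isoproterenol rule, the rule used here had no fold bound, so the counts of the rules are not compared. Of the 9 members, 8 differed between the 4 numbers (edgeR F test in the group and number model, adjusted p under 0.05), beside 54.7% of all tested genes. Chil1 did not (adjusted p = 0.288). Which number was highest or lowest is described without a test. Saa1, Saa3 and Hp were highest in replicate 4 and Slpi in replicate 3, all lowest in replicate 5. The means of the highest and lowest number differed by 5.69 fold for Slpi, 3.98 fold for Saa1, 2.82 fold for Saa3 and 2.00 fold for Hp. Cp, Orm1 and Orm2 were highest in replicate 6 and lowest in 3 or 4, by 3.20, 1.81 and 2.29 fold. Lcn2 was highest in 6 and lowest in 3, by 1.47 fold.

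**Figure D5:**
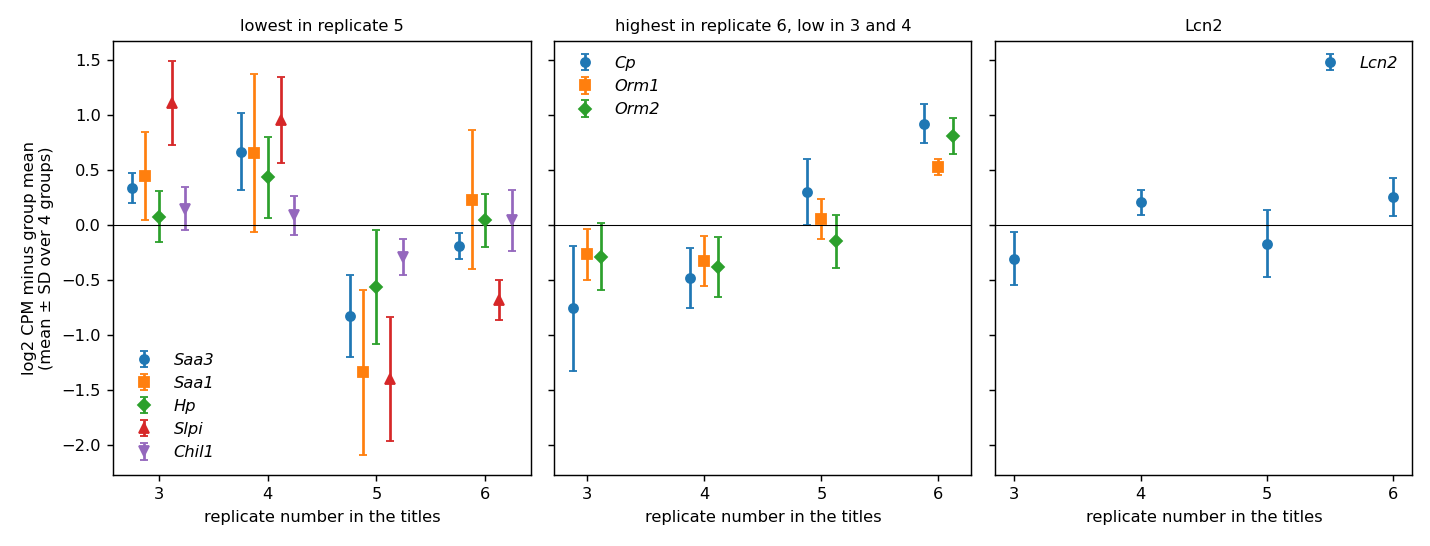
Log2 CPM minus the group mean, by replicate number (mean ± SD over the 4 groups). Saa3 and Slpi lie at -0.83 and -1.40 in replicate 5, and Cp, Orm1 and Orm2 at 0.93, 0.53 and 0.81 in replicate 6.

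Once the model held the ribosomal RNA share, 6 of 9 members and 6018 of 13150 genes, against 7195 without it, were called by number, Hp (edgeR adjusted p = 0.422) and Saa1 (adjusted p = 0.115) being lost. That share was 47.3% and 51.8% in the empty vector libraries of replicate 5 and 20.2% and 20.04% in its sgRNA libraries. Over the 16 libraries with group means removed, log2 CPM of Saa3 and Slpi had Pearson r = 0.94, Orm1 and Orm2 0.93, Cp and Orm1 0.91, Saa3 and Hp 0.82, and Cp and Slpi -0.67. The libraries share their replicate numbers, so the coefficients are a description.

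Markers of other cells that make acute-phase proteins were scarce. Of the 8 macrophage markers Cd68 alone was tested, Adgre1 had 1 count in all libraries and the sum of the list ran from 6.59 to 23.1 CPM. Of the 8 neutrophil markers S100a9, Ly6g and Retnlg were at 0 in all libraries, and the sum reached at most 4.77 CPM. The one tested, S100a8, a calcium-binding protein, had 291 counts and an isoproterenol effect of 1.10 ± 0.37 (edgeR adjusted p = 0.116; 0.0246 with the block). Of the 8 hepatocyte markers Serpina1a was at 0 and Alb had 25 counts in all, with a sum of 0.515 to 2.91 CPM. The one tested, Apoa1, the main apolipoprotein of high-density lipoprotein, had 153 counts and fell with isoproterenol by 1.40 ± 0.38 (edgeR adjusted p = 0.0453). Cd68, a lysosomal protein also made by other cells, rose with isoproterenol by 0.91 ± 0.17 (edgeR adjusted p = 0.00518). Of the 8 preadipocyte and fibroblast markers 4 were tested, and the list summed to between 22.3 and 100.001 CPM in empty vector controls, 27.9 and 117 after isoproterenol, 15.04 and 63.8 in sgRNA controls and 22.6 and 89.4 in stimulated sgRNA cells. Without the block 0 of the 4 were called, and the list's median isoproterenol effect was 0.12. With the block 1 rose, Ly6a, a surface protein of progenitor cells, by 1.09 ± 0.11 (edgeR adjusted p = 4.92e-06). Its effect without the block was 0.99 ± 0.51 (adjusted p = 0.340). Pdgfra at 0.29, Col1a1 at -0.05 and Pi16 at -0.20 passed in neither fit. The sgRNA effect of Ly6a, given with no test, was -0.74. The part of these cells in the members' differences was not tested. Fewer fat cells and less RNA per cell cannot be told apart in bulk libraries.

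Genes of the wider pathway were read from lists. Among ligands and receptors, 16 of 21 were tested, and 3 rose with isoproterenol and 0 fell: Il6, the cytokine inducer of these genes, by 1.92 ± 0.30 (edgeR adjusted p = 0.00145), Osmr, the oncostatin M receptor, by 0.97 ± 0.26 (adjusted p = 0.0430), and Cd14, an endotoxin co-receptor, by 0.82 ± 0.15 (adjusted p = 0.00384). With the block 4 rose and 1 fell. The list's median log2 fold change was 0.16, beside 0.0047 for all genes.

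Of the 15 transcription factors and inhibitors, all tested, 0 were called without the block and 2 fell with it. These were Cebpa, a C/EBP factor of mature fat cells, at -0.72 ± 0.11 (edgeR adjusted p = 0.000236), and Fkbp5, a glucocorticoid target, at -0.64 ± 0.06 (adjusted p = 1.33e-06). Stat3 at 0.10 ± 0.10 (edgeR adjusted p = 0.647) and Cebpb at 0.05 ± 0.24 (adjusted p = 0.952) did not pass. The median was -0.07.

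Of 26 other acute-phase proteins 13 were tested, and Hpx, haemopexin, which binds free haem, rose by 1.35 ± 0.36 (edgeR adjusted p = 0.0426), while 0 fell. With the block 3 rose and 3 fell, and the median without it was -0.24. Of 12 receptors and partners of the members' proteins 4 were tested. Scarb1, a high-density lipoprotein receptor, fell by 0.59 ± 0.08 (edgeR adjusted p = 0.000571), and the list's median was -0.23.

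Genes other than the members were ranked by how closely their log2 CPM followed the members' mean over the 16 libraries. Of 9438 searched with at least 5 CPM on average, the closest were Tmem176b (Pearson r = 0.862), Pros1 (0.835), Ifitm2 (0.823), Ptx3 (0.819) and Nek6 (0.817). Ptx3 encodes the long pentraxin, and Pros1 protein S, a cofactor in anticoagulation. With group means removed they were Htra3 (0.945), Knstrn (0.924), Ssr3 (0.919), Plod2 (0.916) and Iqcc (0.915). The members themselves followed the mean at r from 0.269 (Orm1) to 0.877 (Lcn2), and from 0.244 (Cp) to 0.798 (Hp) with group means removed. The mean thus stands poorly for some members. Over the 16 libraries the mean carries the sgRNA difference by which the members were chosen. With group means removed it carries the spread within groups, which includes the differences between replicate numbers.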

How the data were processed

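RNA-seq of 16 libraries, 4 per group, was analysed. Reads had been quality-filtered by the authors (cutadapt) and assigned to Gencode M22 transcripts (GRCm38) with salmon; the authors deposited the estimated counts per gene as whole numbers. Tool versions, strand setting and how reads shared by paralogs were split are not given in the sources used here. Members and gene lists were chosen with earlier results of these data known.

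From these deposited counts, genes were kept by filterByExpr (minimum count 10, minimum total 15), scaled by TMM and fitted with edgeR 4.0.16 (R 4.3.3) by the quasi-likelihood F test on 4 group means. The SE is the log2 fold change divided by the square root of F. CPM uses TMM-effective library sizes, 7701756 to 18069420 per library, which sets the precision of low values. Correlations used log2 CPM with a prior count of 2. Exon lengths and positions were taken from Gencode M21, in which 54094 of 54347 identifiers matched, and promoters from RefSeq. The code was tested on simulated data. DESeq2 1.42.0, other scalings, no filter, the ribosomal RNA share as covariate and leaving out libraries or numbers were the alternatives. Named list genes are up to 4 called per list with the largest isoproterenol effect; Cebpa and Fkbp5 were named for their blocked call, and Stat3, Cebpb and the single markers after their values were seen.

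Replicate numbers were used as a block because the deviations of same-numbered libraries from their group means correlated in 24 of 24 pairs (r = 0.224 to 0.613). For 72 pairs differing in number and group, r ran from -0.512 to 0.516 (median -0.215). Since group means were removed, positive r within numbers tends to make r between numbers negative on average. The negative median is thus no separate support for the block. The fit without the block is the primary one. It leaves the spread between numbers in its error, so a missing call in it does not show an unchanged gene.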

Additional observations from a re-analysis of the deposited data

Results flagged for a closer look

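In each of the 40 combinations of member and group, the highest and lowest of 4 libraries were compared with the others by Dixon's ratio at its 95% critical value, which chance exceeds in about 1 of 20 groups; 2 exceeded it. Saa1 in sgRNA control replicate 4 stood at 0.912 CPM, 12 reads, while the other 3 libraries lay between 0.150 and 0.280. Chil1 in stimulated sgRNA replicate 6 stood at 1.13 CPM, with the others between 0.792 and 0.801.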

How the results depend on the processing

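Over 31 alternatives the isoproterenol effect averaged over plasmids kept its direction for the 9 tested members except Orm1. In empty vector cells alone, Saa1's effect of -0.42 became 0.23 with the ribosomal RNA share as covariate. Averaged over plasmids, 1 member was called, beside 349 of 13150 genes; the count was 4 (749 genes) with the replicate block, 2 (465) by DESeq2, 3 (436 of 34821) with no filter on low counts, 2 (488) with the ribosomal RNA share as covariate and 4 (740) with that share and the block. It ranged from 0 to 2 when libraries or numbers were left out (0 without replicate 3 or 4, 2 without empty vector isoproterenol replicate 4). With the block only numbers were left out, in fits added after seeing the data, and the count ranged from 3 to 4. In empty vector cells the count of 0 (109 genes) became 2 (588) with the block and 1 (154 of 34821) with no filter. It was 2 (Slpi and Orm2, beside 588 genes) with block and share, and 1 to 3 (418 to 544 genes) in the blocked leave-outs. In sgRNA cells the count of 0 (92 genes) became 3 (513), 1 (125 of 34821) and 4 (Slpi, Cp, Saa3 and Hp, beside 537 genes) under the same settings. It was 2 to 3 (348 to 427 genes) in the blocked leave-outs. Interaction calls stayed at 0 and replicate calls between 6 and 8. Why the counts moved was not tested.

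Orm1's small isoproterenol effect changed sign (range over single leave-outs -0.0059 to 0.21) without empty vector isoproterenol replicate 6 (-0.0050), sgRNA isoproterenol replicate 6 (-0.0059) and replicate 4 (-0.0036; -0.017 with the block). Its sgRNA effect became -0.18 with block and share, ran from -0.053 to 0.17 in the leave-outs (below 0 in 4) and was -0.049 without replicate 5 with the block. Orm2's sgRNA effect ran from -0.26 to 0.16 in the leave-outs (above 0 in 9), was -0.43 with block and share, and was 0.017 without replicate 4 with the block. The cause was not tested. Saa1, Saa2 and Chil1 had at most 49 reads in a library, and Slpi 8 to 86 in empty vector controls and 8 to 27 in sgRNA controls. The part of depth in their spread was not tested.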
